A study of Ovis aries with 26 samples.

Results

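The data concern the transcript of 1 gene, CFTR, among 24478 genes counted in single cells of the fetal and newborn sheep pancreas. It was taken as the row named CFTR in each of 26 libraries from 23 animals. CFTR encodes the cystic fibrosis transmembrane conductance regulator, a chloride and bicarbonate channel of the apical membrane of epithelial cells. In the pancreas it is known as a channel of the duct. Secretin acts on its receptor on duct cells, cyclic AMP rises and protein kinase A opens the channel. Chloride then passes into the lumen and is exchanged for bicarbonate, and water follows. Loss of the channel leaves thick secretions in the ducts, which is where cystic fibrosis of the pancreas begins in utero.

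All animals were American Romney sheep and the tissue was fresh pancreas, dissociated with collagenase or Liberase. The groups were fetuses at 80 days (2 WT, 2 heterozygous and 3 CFTR-/-) and at 120 days of gestation (3 WT and 6 CFTR-/-), and lambs at term (4 WT and 3 CFTR-/-). The heterozygous fetuses, labelled HZ (CFTR+/-), carried 1 allele targeted in exon 11. They are set with the WT fetuses here, as the study did. The 3 CFTR-/- fetuses at 80 days, 4 of the 6 at 120 days (replicates 1 to 4) and 1 of the 3 lambs at term (replicate 3) were clones of a single male fibroblast line targeted in exon 2. They share 1 genotype. The other CFTR-/- animals were naturally bred, and those at 120 days were female twins. Both HZ fetuses and WT replicate 3 at 80 days were triplets. In the study's sample table the animal numbers share a stem, as those of the triplets and twins do, in 3 further pairs: CFTR-/- replicates 2 and 3 at 80 days, WT replicates 1 and 2 at 120 days and CFTR-/- replicates 2 and 3 at 120 days. The cloned fetuses of both ages came from fewer recipient ewes than fetuses, so at least 1 pair at each age shared a recipient, but which animals these were is not stated in the sources used here. All were treated as separate animals. The libraries count the 3′ end of transcripts, away from either targeted exon, so the CFTR count checks no genotype label: a transcript of the disrupted gene that is still made and spliced is counted like any other.

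Of 109501 barcodes, 79510 were kept, each with over 200 but under 6000 detected genes. Mitochondrial transcripts gave under 25% of its UMIs (unique molecular identifiers, 1 per captured transcript). A library held 943 to 9543 kept cells and 7841217 to 171256169 UMIs in all barcodes, of which 462 to 5674 in kept cells were CFTR. No 2 libraries shared more than 0.458% of their barcodes. Cells were assigned to lineages by scores over marker genes that leave CFTR out, and a cell near 2 lineages stayed ungated. No doublet caller was run. Duct-gated cells, chosen on KRT19, KRT7, PKHD1, CLDN4 and 10 further genes, had a median duct score of 1.69 and a median of -0.0142 for the next list. Levels (CPM) are the CFTR UMIs in each 1000000 UMIs of an animal's cells of a lineage, for animals with at least 20 such cells. Where 1 animal gave 2 libraries they were summed. Their duct-gated levels were 247 and 221 CPM, 212 and 199 CPM, and 193 and 185 CPM. One animal stood apart by its CFTR level, the cloned CFTR-/- replicate 3 at 120 days, at 869 CPM in duct-gated cells. It had 943 kept cells and 88 duct-gated cells with a median of 18.1% mitochondrial UMIs, against 4.09% to 9.74% in the duct-gated cells of the other 22 animals. Each comparison of the CFTR level between groups that it enters is also given without it, and so are the counts of other genes where they change. Those values leave out an animal chosen on the level being compared. Comparisons between lineages and between depth classes that it enters are given with it only.

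CFTR was a transcript of the duct-gated cells. The 11423 duct-gated cells made up 14.4% of the kept cells and 8.88% of their UMIs, and held 34368 of the 41229 CFTR UMIs, 83.4%. Over 23 animals their level was 297 ± 164 CPM (SD, n = 23), with a lowest animal of 159, a median of 243 and a highest of 869 CPM. Without the animal that stood apart, the highest was 586 CPM. Acinar cells, which secrete the digestive enzymes, had 3.31 ± 1.44 CPM (n = 21) and endocrine cells, which secrete the islet hormones, had 3.31 ± 1.72 CPM (n = 21). In each of the 21 animals with both gates the duct-gated level was above the acinar-gated one, by 4.33 ± 0.44 on a log2(CPM + 10) scale and by at least 41.6 times in CPM (two-sided permutation of signs over animals, p = 2e-05, the smallest that 100000 resamples can give). The range of the 23 duct-gated values did not touch that of any other gated lineage with more than 2 animals.

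**Figure D1:**
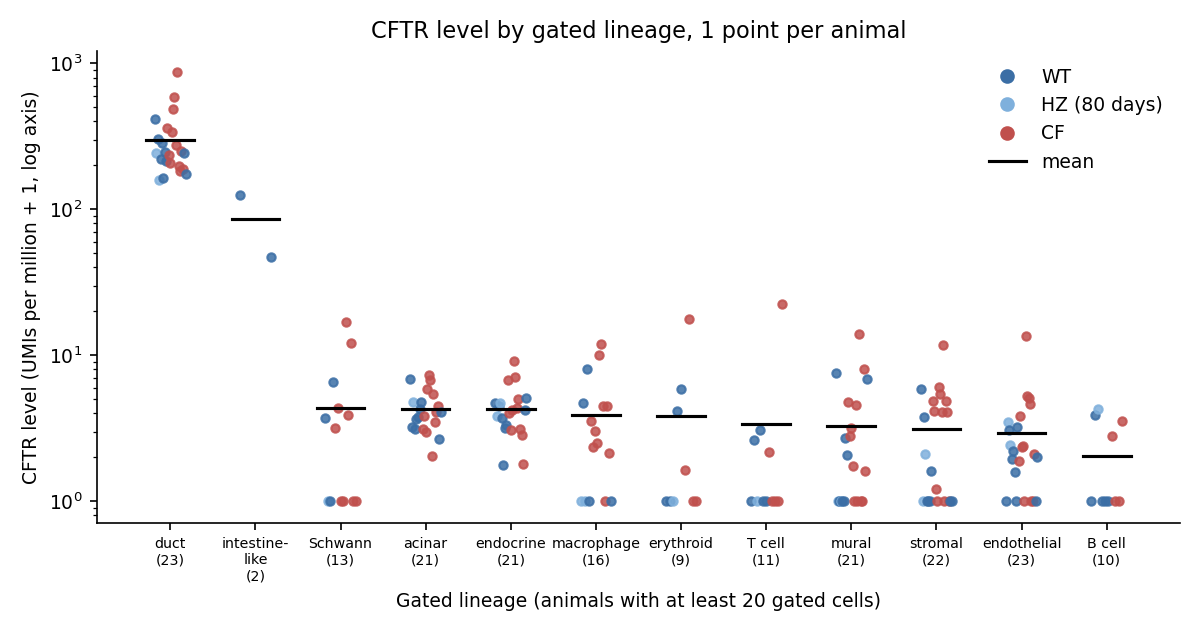
CFTR level (CPM + 1, log axis) in each gated lineage, 1 point per animal with at least 20 gated cells, coloured by genotype, with the mean as a line and the number of animals below each name. The 23 duct-gated values lie between 159 and 869 CPM, and the mean of every lineage to the right of the intestine-like cells is under 3.4 CPM.

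Below the duct the order of the lineages could be read in part only. Cells with intestinal markers (VIL1, CDX1, FABP2 and others) came next, at 124 CPM in 20 cells of WT replicate 1 at 80 days and 45.9 CPM in 158 cells of WT replicate 4 at term. Both animals had a higher duct-gated level, by 3.48 times in the means, and 2 pairs cannot give a p below 0.5. In the lamb at term these cells held 160 of the 640 CFTR UMIs of the animal and the duct-gated cells 35%, the lowest duct share of the 23 animals. Then followed Schwann cells at 3.36 ± 4.91 CPM (n = 13), acinar, endocrine, macrophage (2.89 ± 3.38, n = 16), erythroid (2.81 ± 5.48, n = 9), T (2.40 ± 6.42, n = 11), mural (2.28 ± 3.36, n = 21), stromal (2.14 ± 2.71, n = 22), endothelial (1.92 ± 2.68, n = 23) and B cells (1.05 ± 1.41, n = 10). From Schwann cells down, no neighbours in this order differed beyond the spread over animals (9 pairs, exact or 100000-resample permutation of signs within animals, adjusted p = 0.97 for each). The intestine-like and Schwann cells shared 1 animal and were not tested.

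The acinar-gated level was above that of the non-epithelial lineages summed, 3.31 against 2.19 CPM in the same 21 animals, and higher in 16 of 21 (two-sided permutation, p = 0.006, adjusted p = 0.0113 over 6 such comparisons with acinar cells). By single lineage it was higher than the endothelial level in 19 of 21, the stromal level in 15 of 20 and the mural level in 14 of 19 animals (adjusted p = 0.0113 each, same permutation test). Against macrophages it was higher in 7 of 15 only, 3.31 against 3.09 CPM (adjusted p = 0.584). Against endocrine cells the difference was -0.02 CPM in 20 animals, with acinar cells higher in 10 (same permutation test, adjusted p = 0.97). These comparisons were not matched for depth. In cells of 10000 to 20000 UMIs the acinar-gated mean was 2.80 CPM (18 animals) and the non-epithelial one 3.24 CPM (20 animals). At 20000 to 40000 UMIs they were 3.28 CPM (20 animals) and 6.26 CPM (12 animals). In the shallower classes the acinar-gated mean was the higher one. Free RNA in a droplet gives UMIs to cells that do not make a transcript. Across the 23 animals the level in non-epithelial cells followed the level over all kept cells of the same animal (Pearson's r = 0.82, permutation p = 0.00032; Spearman's rho = 0.53, permutation p = 0.011; 1 relation tested). Without the 2 animals farthest from the median r was 0.41, and the non-epithelial UMIs are part of the total. Whether any of these cells made CFTR themselves was not tested. CFTR-/- fetuses at 80 days, with the highest mean level over all cells, also had the highest non-epithelial mean, 5.06 ± 3.19 CPM (n = 3) against 1.89 ± 1.59 in the 4 controls. How much of the 3.31 CPM of acinar cells is free RNA was not tested.

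The 12635 ungated cells held 8.22% of the CFTR UMIs, at 24.4 ± 20.1 CPM (n = 23). Of their 3388 CFTR UMIs, 1594 lay in 1371 cells whose highest score was the duct score but under the minimum or too close to another lineage. The ungated level ranged from 6.82 to 86.8 CPM, below the duct-gated level in 23 of 23 animals.

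Detection of CFTR in a cell followed the depth of that cell. Among duct-gated cells with under 2000 UMIs, 19.8% ± 7.2 (SD, 6 animals) had a CFTR UMI, and among those with 2000 to 5000 UMIs 54.7% ± 15.0 (18 animals). The share was 74.2% ± 10.1 (21 animals) at 5000 to 10000, 89.5% ± 6.84 (23 animals) at 10000 to 20000 and 94.9% ± 5.07 (18 animals) at 20000 to 40000 UMIs. The level did not follow the same course: the CPM of these 5 classes were 219, 327, 312, 306 and 259. In non-epithelial cells of the same depths the share was 0.263%, 0.541%, 0.78%, 2.54% and 6.86%, and in acinar-gated cells it reached 16.1% ± 4.34 (19 animals) above 40000 UMIs, where the level was 3.55 CPM.

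**Figure D2:**
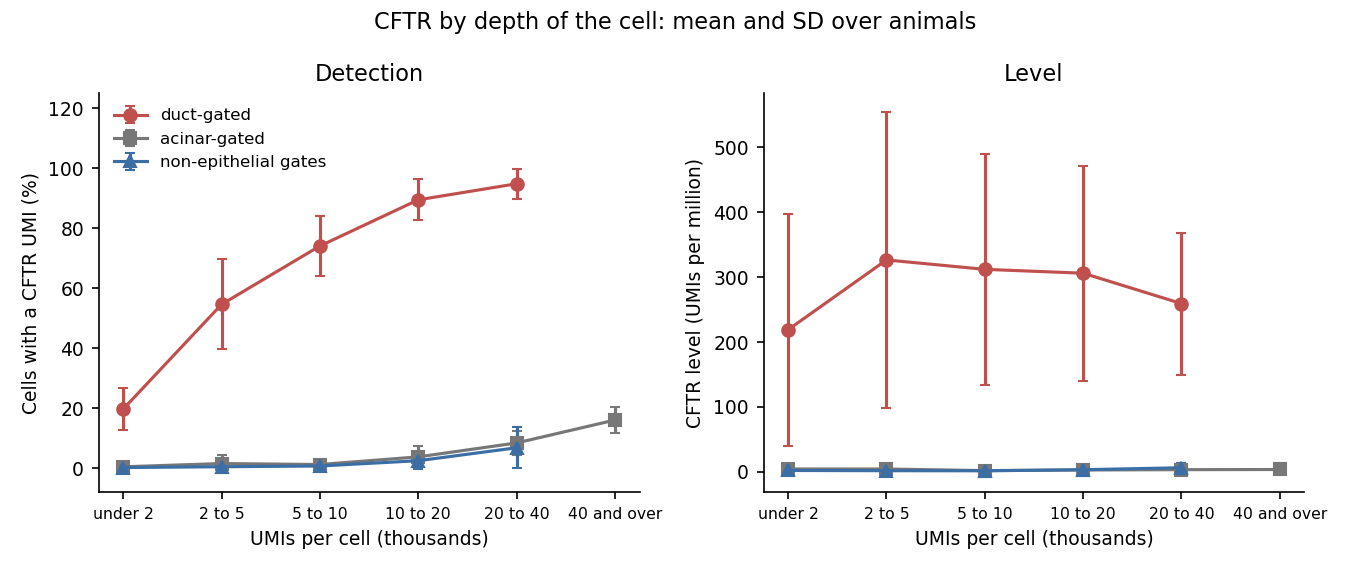
Share of cells with a CFTR UMI (left, %) and CFTR level (right, CPM) by the number of UMIs per cell, in duct-gated, acinar-gated and non-epithelial cells. Points are means over animals with at least 20 such cells and bars are SD. Detection in duct-gated cells climbs from 19.8% to 94.9% while their level stays between 219 and 327 CPM.

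When every cell was thinned to 3000 UMIs, leaving out shallower ones, 50.1% ± 13.1 of duct-gated cells (n = 23; 34.3% to 85.05%) had a CFTR UMI, against 76.5% ± 11.3 unthinned. The same depth gave 0.914% ± 0.468 in acinar cells (n = 21), 0.958% ± 0.494 in endocrine cells (n = 21) and 0.478% ± 0.425 in non-epithelial cells (n = 23). The median depth before thinning was 9667 UMIs in duct-gated and 28502 in acinar-gated cells, so the deeper cells were those with the lower share.

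In the mean over animals, CFTR counts of duct-gated cells were spread more widely than counting error alone gives. An animal's mean ran from 0.996 UMIs per duct-gated cell (WT replicate 4 at term) to 8.02 (CFTR-/- replicate 3 at 80 days), and the richest cell of an animal held 10 to 50. At 3000 UMIs per cell the variance of the CFTR count was 1.46 ± 0.25 times its mean (1.03 to 2.05), where counting error alone gives about 1. The lowest, CFTR-/- replicate 6 at 120 days, was at 1.03 with 48.2% of cells without a CFTR UMI, where a Poisson count gives 47.8%, and no error was computed for the ratio of a single animal. Over the 23 animals cells with no CFTR UMI made up 48.9% ± 13.7, against 43.2% ± 14.3 for a Poisson count of the same mean.

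Division was the one cell state set against CFTR. Duct-gated cells were thinned to 3000 UMIs each, leaving out shallower ones, and CPM here is over the thinned UMIs. In the 11 animals with at least 20 dividing and 20 other cells, the dividing cells had 290 ± 150 CPM and the others 318 ± 149 CPM. The dividing cells were higher in 4 of 11 animals, with a mean log2 difference of -0.17 ± 0.49 (exact two-sided permutation of signs, p = 0.271), a difference smaller than the spread between animals. MUC6, the gel-forming mucin of the pancreatic duct, could not be set against CFTR in the same way. Only 11 MUC6 UMIs lay in 9 of the 11423 duct-gated cells, 7 of which also had a CFTR UMI, and all barcodes together held 176.

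At 80 days the duct-gated level was 417 and 302 CPM in the WT fetuses (replicates 1 and 3), 243 and 159 CPM in the HZ fetuses (replicates 2 and 4) and 359, 487 and 586 CPM in the CFTR-/- fetuses. The groups overlapped through WT replicate 1. Their means were 280 ± 108 CPM (n = 4) and 477 ± 114 CPM (n = 3). The log2 fold change of CFTR-/- against controls was 0.85 ± 0.35 (SE; a fold of 1.80; edgeR quasi-likelihood test on UMIs summed per animal, unadjusted p = 0.0229), and it did not pass after Benjamini-Hochberg adjustment over the 12804 genes tested (adjusted p = 0.262). In that comparison 1.19% of the genes tested passed. An exact permutation test over these 7 fetuses (two-sided) gave p = 0.114, and 0.0286 is the smallest it allows. Both HZ fetuses were below both WT fetuses, and with the WT fetuses as the only controls the log2 fold change was 0.51 (adjusted p = 0.892). The CFTR-/- fetuses were all clones and the controls naturally bred, so genotype and cloning cannot be told apart at this age. All 7 fetuses were male.

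Detection at equal depth was also higher in the mean of the CFTR-/- fetuses, and the groups overlapped. Thinned to 3000 UMIs, 67.3% ± 7.06 (n = 3) of CFTR-/- and 50.2% ± 11.9 (n = 4) of control duct-gated cells had a CFTR UMI, a difference of 17.0 percentage points (exact two-sided permutation, p = 0.114, adjusted p = 0.343 over the 3 ages). Thinning left out 70 of 879 control and 56 of 1327 CFTR-/- cells. Unthinned the shares were 91.4% and 79.3%.

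At 120 days the WT fetuses had 219, 284 and 163 CPM. The cloned CFTR-/- fetuses had 235, 273, 869 and 197 CPM and the naturally bred twins 181 and 248 CPM. Apart from the fetus at 869 CPM, every CFTR-/- fetus lay within the WT range. The log2 fold change of CFTR-/- against WT was 0.46 ± 0.33 (edgeR, adjusted p = 0.758, with 0.0234% of genes passing), and 0.11 without that fetus. Its 7 duct-gated cells under 10% mitochondrial UMIs, fewer than the minimum of 20, had 756 CPM and the rest 882 CPM. Leaving mitochondrial UMIs out of the total raised its value to 1043 CPM. The group mean was 334 ± 264 CPM with it (n = 6) and 227 ± 37.6 CPM without it (n = 5), beside 222 ± 60.6 CPM in WT (n = 3).

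Breeding was compared at the same age. The cloned fetuses, at 394 ± 319 CPM (n = 4), were 0.64 ± 0.33 on the log2 scale above WT (edgeR, adjusted p = 0.445, 0.0833% of 13209 genes passing) and 0.66 ± 0.38 above the naturally bred ones (adjusted p = 0.324, 0.878% passing). With the fetus that stood apart left out these were 0.19 and 0.22 (0.0459% and 0.902% passing). The naturally bred fetuses, at 215 ± 47.2 CPM (n = 2), differed from WT by -0.02 ± 0.39 (adjusted p = 0.994). In that last comparison edgeR called 0 genes, with 1671 at an unadjusted p under 0.05, and DESeq2 called 188. Since the twins were female and the clones male, breeding and sex cannot be told apart. Detection at 3000 UMIs was 50.5% ± 17.6 in CFTR-/- and 42.8% ± 8.40 in WT fetuses (exact permutation, p = 0.571), and the difference of 7.73 points was 0.831 without the fetus that stood apart.

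At term the WT lambs had 248, 215, 242 and 175 CPM, a mean of 220 ± 33.5 (n = 4). The CFTR-/- lambs had 205 and 339 CPM (naturally bred) and 189 CPM (cloned), a mean of 244 ± 82.2 (n = 3). Of these, 2 lay within the WT range and replicate 2 above it. The naturally bred CFTR-/- lambs and WT replicate 3 were female, and the other lambs were male. The log2 fold change was 0.29 ± 0.35 (edgeR, adjusted p = 0.740, with 3.8% of genes passing) and 0.06 without CFTR-/- replicate 2. Unthinned, 78.7% of CFTR-/- and 64.9% of WT duct-gated cells had a CFTR UMI, 13.7 points apart. The WT cells were shallower, with a median of medians of 5345 UMIs against 10594, and at 3000 UMIs the difference was 4.32 points (47.9% ± 10.5 against 43.6% ± 5.46, exact permutation, p = 0.571).

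Across ages no change in the CFTR level of duct-gated cells passed the test with all animals. In controls the means were 280 CPM at 80 days (WT with HZ, n = 4) and 222 and 220 CPM in WT animals at 120 days and term. The log2 differences were -0.13 ± 0.35 from 80 to 120 days (edgeR, adjusted p = 0.921, 0.719% passing) and -0.02 ± 0.35 from 120 days to term (adjusted p = 0.994, 0.64% passing). At 80 days the WT fetuses had 417 and 302 CPM, above the 163 to 284 CPM of WT fetuses at 120 days. The HZ fetuses had 243 and 159 CPM. In CFTR-/- animals the means were 477, 334 and 244 CPM. These animals were all cloned males at 80 days, mostly cloned males at 120 days and mostly naturally bred females at term. Age therefore shifted together with breeding and sex, and the fit did not separate them. This holds for every comparison of ages in CFTR-/- animals. The difference from 80 to 120 days was -0.52 ± 0.32 (adjusted p = 0.395, 3.68% passing). Without the fetus that stood apart it was -0.87 with an adjusted p of 0.0255, and with all cells of 10% mitochondrial UMIs or more left out, which removes the same fetus, -0.85 with an adjusted p of 0.0391. Both settings drop the highest CFTR level of the 120-day group, by which that fetus was singled out. From 120 days to term the difference was -0.19 ± 0.33 (adjusted p = 0.757, 11.4% passing) and 0.16 without that fetus. The CFTR-/- minus WT difference changed between ages by -0.39 ± 0.47 from 80 to 120 days (adjusted p = 0.960, 0.0234% passing) and by -0.17 ± 0.48 from 120 days to term (adjusted p = 0.955, 0.00781% passing), which passed in neither step. Without that fetus these changes were -0.75 (adjusted p = 0.660) and 0.17 (adjusted p = 0.907). Over the 12 duct-gated comparisons, edgeR called CFTR in 0 and DESeq2 in 0, with an unadjusted p under 0.05 in 1 and 2 of them.

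Over all kept cells CFTR also counts how many duct cells a library holds. In these data fewer duct cells and less CFTR per duct cell can be told apart only through the gate. At 80 days the level over all kept cells was 57.1, 94.4 and 137 CPM in the CFTR-/- and 20.6 to 38.9 CPM in the 4 control fetuses, and the groups did not overlap. The log2 fold change was 1.54 ± 0.39 (edgeR, unadjusted p = 0.000844, adjusted p = 0.183, 0.0221% of 18084 genes passing). It passed with DESeq2 (1.51, adjusted p = 0.0458), while exact permutation gave p = 0.0571. Duct-gated cells took 14.0% to 21.04% of the UMIs of the CFTR-/- libraries and 5.62% to 10.1% of those of the controls. Shares of UMIs also depend on the depth of the cells. By number of cells the shares overlapped, 11.4% to 20.0% against 7.09% to 12.0%, with means of 16.2% and 9.98%. Both the share of cells in the duct gate and the level inside it were thus higher in the means only.

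At 120 days the level over all kept cells was 13.0 to 134 CPM in CFTR-/- (median 37.3, n = 6) and 16.3 to 26.8 CPM in WT fetuses (n = 3), a log2 fold change of 0.52 (edgeR, adjusted p = 0.875, 0.0387% passing) and 0.40 without the fetus that stood apart (0.0166% passing). At term it was 15.3, 24.8 and 57.0 CPM against 6.94 to 31.9 CPM, 0.67 (adjusted p = 0.338, 0.946% passing). Single lambs moved that value, to 0.20 without CFTR-/- replicate 3, the cloned lamb, and to 1.13 without WT replicate 1. The share of UMIs in duct-gated cells at term was 13.3% ± 12.8 in CFTR-/- lambs and 4.36% ± 4.61 in WT lambs, with 28.04% in the cloned lamb. By number of cells it was 17.5% ± 15.6 and 12.1% ± 10.4. In acinar-gated cells HZ replicate 2 at 80 days and the fetus that stood apart had under 20 cells and were not in the fit. The log2 fold change of CFTR there passed at no age: 0.17 at 80 days (adjusted p = 0.961, 0.0569% passing), 0.13 at 120 days (adjusted p = 1.000, 0.0142% passing) and 0.19 at term (adjusted p = 0.863, 0.576% passing). Over these 3 comparisons edgeR and DESeq2 each called CFTR in 0, with an unadjusted p under 0.05 in 0.

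**Figure D3:**
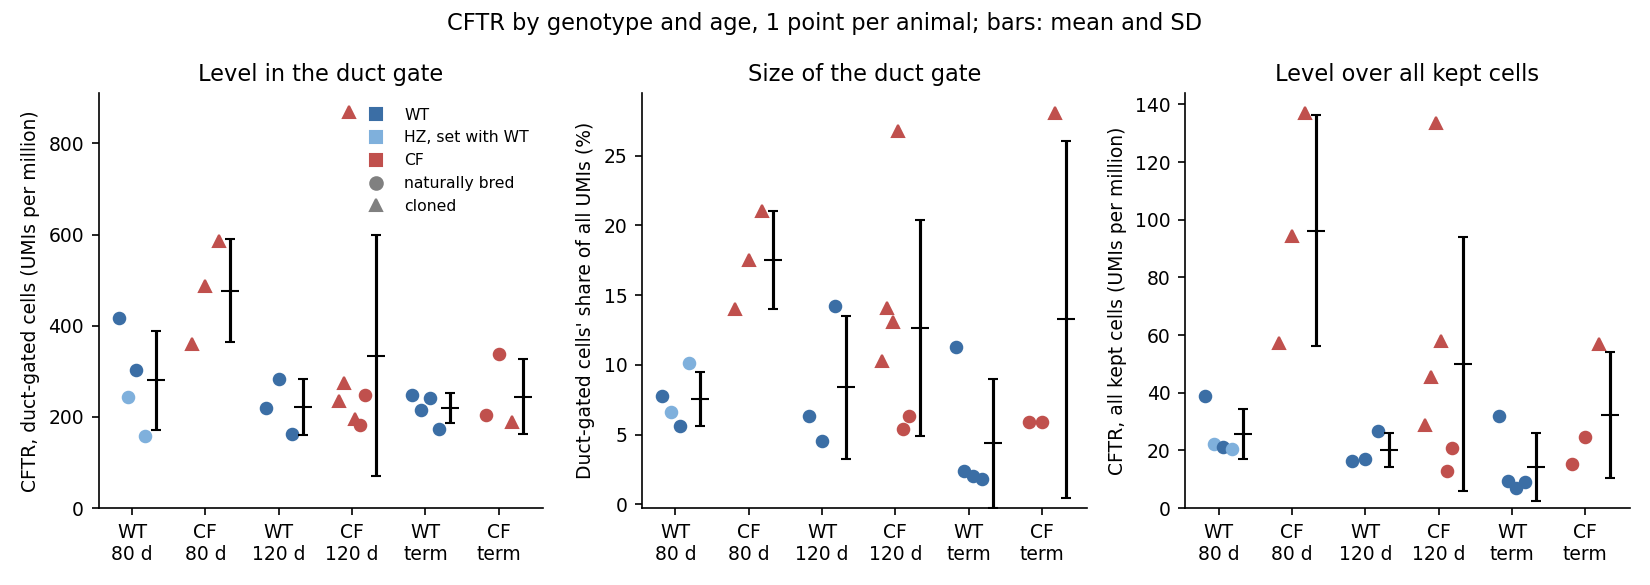
CFTR in duct-gated cells (left, CPM), share of all UMIs in duct-gated cells (middle, %) and CFTR over all kept cells (right, CPM) by genotype and age, 1 point per animal; triangles are cloned animals and bars are the mean and SD. The 3 CFTR-/- fetuses at 80 days overlap the controls on the left and stand above all 4 of them in the middle and on the right.

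The limit of 6000 genes per cell, taken from the study's filter, removed many CFTR transcripts. All barcodes held 67088 CFTR UMIs, and 23079 of them lay in the 2545 barcodes with 6000 genes or more, 2780 in the 27118 with 25% mitochondrial UMIs or more, and 48 in the 10660 with 200 genes or fewer. Scored with the same markers, 1169 barcodes above the limit passed the duct gate. They were 9.28% of the duct-gated cells so counted but held 19713 CFTR UMIs, 36.5% of the total in that gate. Of these barcodes 99.7% had a CFTR UMI, with a median of 13 against 2 in kept duct-gated cells.

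Relative to their depth the duct-gated cells above and below the limit did not differ beyond the spread between animals. In the 14 animals with at least 20 such cells they had 289 ± 121 CPM and the kept cells 291 ± 119 CPM, higher above the limit in 7 of 14 (exact permutation of signs, p = 0.858). The share of CFTR UMIs lost to the limit differed between animals, from 0.847% (WT replicate 2 at term) to 63.9% (HZ replicate 2 at 80 days). At 80 days it was 7.09%, 41.6%, 56.0% and 63.9% in the controls and 48.7% to 55.7% in the CFTR-/- fetuses, and at 120 days 1.77% to 6.76% in WT and 11.6% to 43.3% in CFTR-/- fetuses. At term it was 0.847% to 28.5% in WT and 9.57% to 58.8% in CFTR-/- lambs, with overlap. In acinar-gated and ungated cells the barcodes above the limit had a higher CFTR level: 8.21 against 2.99 CPM in acinar-gated cells, higher in 9 of 9 animals (exact permutation, p = 0.00391), and 67.9 against 23.6 CPM in ungated cells, higher in 12 of 12 (p = 0.000488). In endocrine cells it was 19.3 ± 21.4 against 5.13 CPM, higher in 3 of 4 animals (exact permutation, p = 0.25). Doublets of a duct cell and another cell were not called, and their part in this was not tested.

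**Figure D4:**
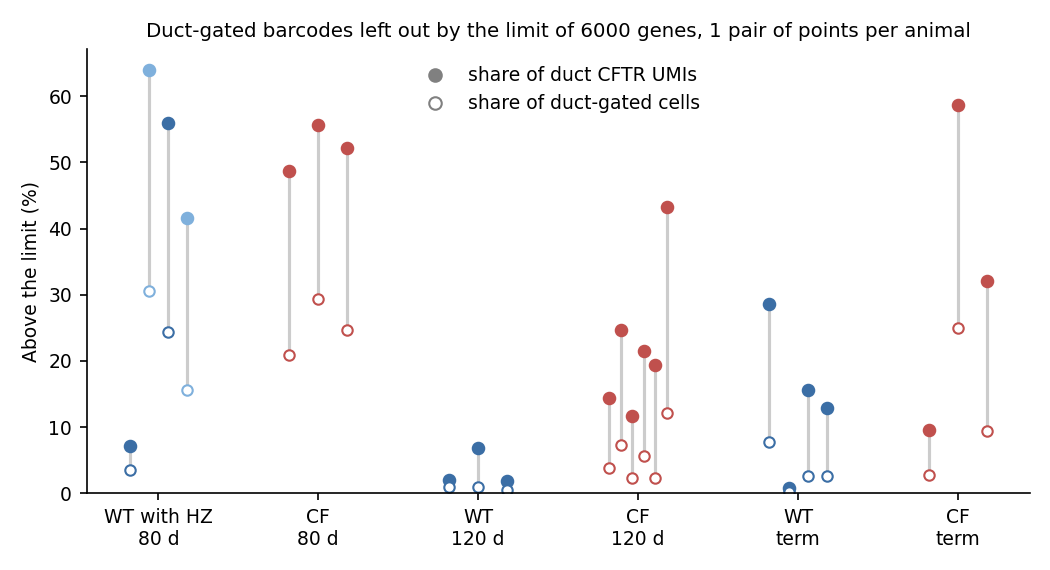
Share of duct-gated barcodes (open points, %) and of their CFTR UMIs (filled points, %) that lie above the limit of 6000 genes, by genotype and age, 1 pair of points per animal joined by a line. The share of UMIs exceeds the share of cells in every animal and reaches 63.9%.

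The genes known to work with CFTR in duct secretion ranged from abundant duct transcripts to ones hardly detected. Of 33 listed, 32 were in the files, and 16 of these had a higher level in duct-gated than in acinar-gated cells in each of the 21 animals with both. That is 50%, beside 36.1% of all 24478 genes. Of the 32, 20 passed the filter on low counts in duct-gated cells, a filter that favours genes high in the duct. Among these 20 the 16 are 80%, beside 66.6% of the 13209 genes that passed it. The other 12 had means of at most 0.698 CPM in duct-gated cells, and none was higher there in every animal. Of them BEST4, an anion channel, had 0.0824 CPM in duct-gated and 2.48 CPM in acinar-gated cells and was higher in the duct gate in 0 of 21 animals. SLC4A4, the sodium bicarbonate cotransporter that loads duct cells with bicarbonate, had 586 ± 261 CPM in duct-gated cells (n = 23) and a mean of 4.54 CPM in acinar-gated cells (n = 21). SCTR, the secretin receptor, had 246 ± 211 against 2.90 CPM. ATP1B1, a subunit of the pump that sets up the sodium gradient, had 533 ± 239 against 29.9 CPM. FXYD3, a regulator of that pump, was closer in both, 281 ± 155 against 143 CPM, and higher in the duct gate in 19 of 21 animals. The levels of different genes were not tested against each other.

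**Figure D5:**
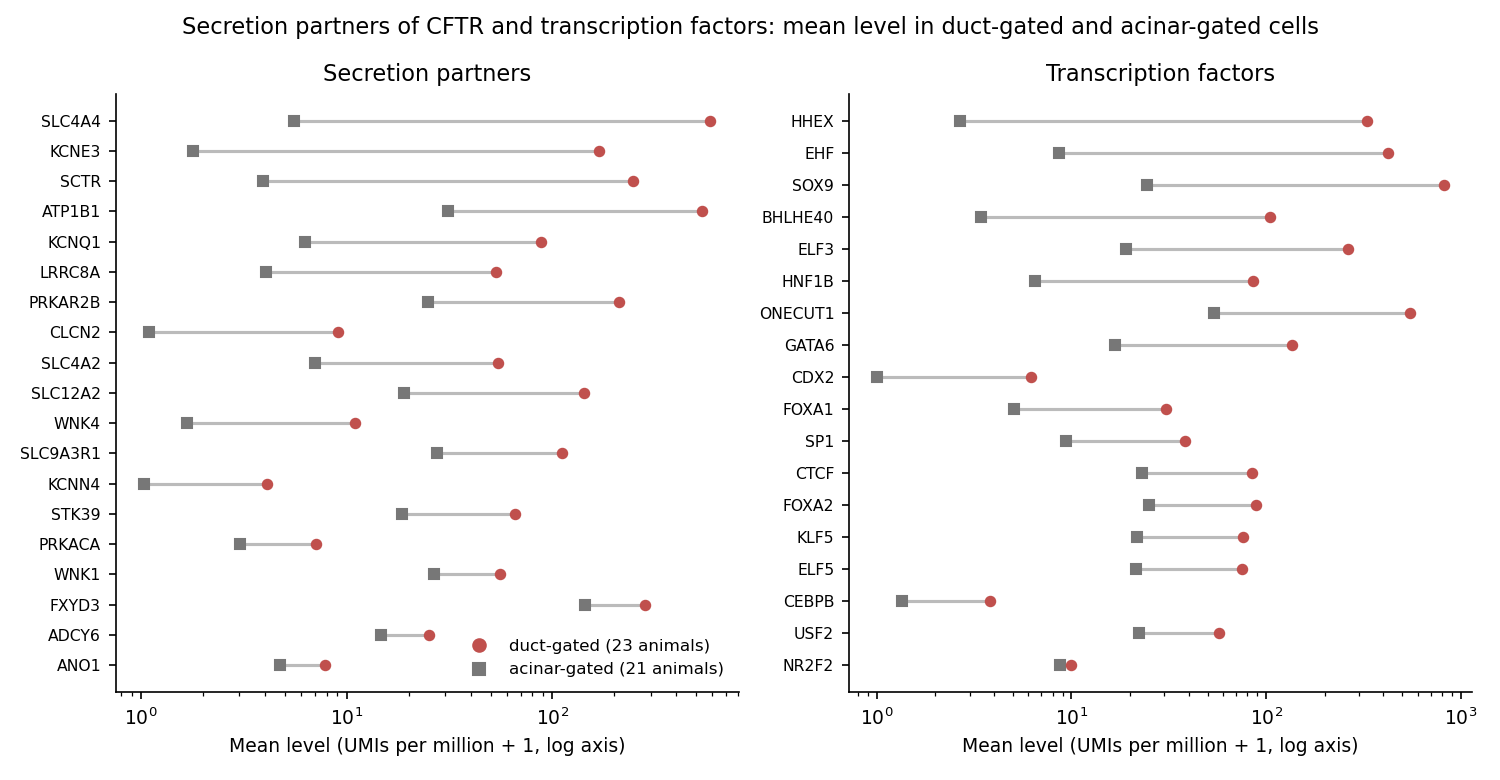
Mean level (CPM + 1, log axis) of the secretion partners of CFTR (left) and of transcription factors (right) in duct-gated (circles, 23 animals) and acinar-gated cells (squares, 21 animals), for the listed genes reported here with a mean of at least 1 CPM in duct-gated cells, ordered by the ratio of both. SLC4A4 and SCTR are far apart (586 and 4.54, 246 and 2.90 CPM), and NR2F2 is the closest pair (8.91 and 7.77 CPM).

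Between genotypes edgeR called at most 1 of the 20 partners at an age. At 80 and 120 days edgeR called 0 of the 20, beside 1.19% and 0.0234% of all genes (7 and 4 partners at an unadjusted p under 0.05, 2 and 0 by DESeq2). Of all 12804 genes tested by edgeR, 1685 and 1071 had an unadjusted p under 0.05. DESeq2 called 388 and 48 genes in all. The count of partners called by edgeR at 120 days was 0 again without the fetus that stood apart (2 at an unadjusted p under 0.05, with 0.0472% of all genes passing). At term 1 passed, beside 3.8% of all genes. It was SLC4A4, and it fell by 1.95 ± 0.38 on the log2 scale in CFTR-/- lambs (adjusted p = 0.00603). Its level was 172 ± 90.4 CPM in CFTR-/- (88.5 to 268, n = 3) and 762 ± 251 CPM in WT lambs (394 to 951, n = 4), without overlap. The call was kept under 16 of 17 alternatives and lost with the lambs at term fitted alone (adjusted p = 0.0821). The median log2 fold change of the 20 was -0.10 at term and 0.00185 over all genes tested. ATP1B1 was lower in every CFTR-/- fetus at 80 days, 193 to 228 CPM against 529 to 674 CPM in controls, but did not pass (log2 fold change -1.36, adjusted p = 0.0766). Other partners without overlap at 80 days went both ways and did not pass either. They were picked by their values, and the share of all genes without overlap is not given here. FXYD3 (112 to 165 against 314 to 599 CPM), PRKAR2B and ANO1 were lower in CFTR-/- fetuses. SCTR (291 to 334 against 98.2 to 176 CPM) and SLC4A2 (81.1 to 89.4 against 51.3 to 70.7 CPM) were higher.

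Between ages the partners that edgeR called were in CFTR-/- animals, where breeding and sex shifted with age. The WT means are given below. From 80 to 120 days 2 of 20 did, beside 3.68% of all genes. ANO1, a calcium-activated chloride channel, rose by 2.90 ± 0.69 (adjusted p = 0.0209) and SLC4A2, an anion exchanger, fell by 0.85 ± 0.17 (adjusted p = 0.00726). The rise of ANO1 started from 0.82 ± 0.50 CPM at 80 days (0.251 to 1.18 CPM), a level that rests on few UMIs. The call for ANO1 was lost without any 1 of the 3 fetuses at 80 days (adjusted p up to 0.119), while that for SLC4A2 was kept without each of the 9 animals in turn and lost in 2 of 10 other settings (adjusted p up to 0.0740). Without the fetus that stood apart 5 of 20 passed, beside 7.82% of all genes. The 3 added were CLCN2, a chloride channel, at -0.78, ATP1B1 at 1.17 and FXYD3 at 1.44 (adjusted p = 0.0461, 0.0376 and 0.0139). From 120 days to term in CFTR-/- animals 5 of 20 passed, beside 11.4% of all genes. The potassium channel subunit KCNE3 rose by 1.29 (adjusted p = 0.0361), SCTR by 1.41 (adjusted p = 0.0320; 0.73 without CFTR-/- replicate 2 at term, adjusted p = 0.354) and ANO1 by 1.78 (adjusted p = 0.0237), while SLC4A4 fell by 1.59 (adjusted p = 0.00580) and PRKAR2B, a regulatory subunit of protein kinase A, fell by 0.90 (adjusted p = 0.0239). The fall of SLC4A4 passed with any animal left out and was lost in 1 of 10 other settings (adjusted p = 0.0724). The rise of ANO1 was 0.68 without CFTR-/- replicate 1 at term (adjusted p = 0.408), and the calls for KCNE3, SCTR and PRKAR2B were lost without 6, 5 and 3 of 9 animals in turn (adjusted p up to 0.128, 0.354 and 0.135 over all alternatives). Without the fetus that stood apart 6 of 20 passed, beside 13.8% of all genes: KCNE3 no longer did (adjusted p = 0.0549), and WNK4, a kinase that regulates ion transport, at -1.33 and FXYD3 at -1.21 did (adjusted p = 0.0440 and 0.0221). In controls (WT with HZ at 80 days) edgeR called 0 of 20 in either step, beside 0.719% and 0.64% of all genes (3 and 4 partners at an unadjusted p under 0.05, 1 and 1 by DESeq2). Of all 12804 genes tested by edgeR, 1900 and 1604 had an unadjusted p under 0.05. DESeq2 called 385 and 259 genes in all. From 120 days to term the WT means of the 5 genes called with all animals moved the same way as in CFTR-/- animals. KCNE3 went from 136 ± 78.8 to 342 ± 81.4 CPM, SCTR from 108 ± 7.80 to 200 ± 110 and ANO1 from 1.92 ± 1.64 to 12.5 ± 5.95. PRKAR2B went from 249 ± 47.5 to 151 ± 46.8 CPM. SLC4A4 went from 838 ± 246 to 762 ± 251 CPM, a shift within the spread of the WT animals. From 80 to 120 days SLC4A2 went from 63.3 to 50.1 CPM and ANO1 from 2.67 to 1.92. Of the tests of whether the genotype difference changed with age, edgeR called 0 of 20 in either step (5 and 1 at an unadjusted p under 0.05, 0 by DESeq2), and 0 again without the fetus that stood apart (4 and 1, with 0.0315% and 0.0236% of all genes passing). With all animals, 744 and 1137 of the 12804 genes had an unadjusted p under 0.05, and DESeq2 called 14 and 32.

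Of the transcription factors known to act on CFTR or in duct development, 19 were tested and 16 were above their acinar-gated level in every animal (84.2%, beside 66.6% of the genes passing the same filter). One of the 19, CDX2, also marks the intestine-like gate. SOX9, a factor of duct progenitors, had 815 ± 227 CPM in duct-gated cells (n = 23) against a mean of 23.4 CPM in acinar-gated cells (n = 21). The homeobox genes ONECUT1 and HHEX had 549 ± 278 and 327 ± 132 CPM against 52.7 and 1.68 CPM, and the ETS factors EHF and ELF3 had 421 ± 107 and 261 ± 130 CPM against 7.64 and 18.1 CPM. At none of the 3 ages did edgeR call a factor between genotypes (0 of 19, with 2, 1 and 1 at an unadjusted p under 0.05 and 1, 0 and 0 by DESeq2), where 1.19%, 0.0234% and 3.8% of all genes passed. Of all 12804 genes tested by edgeR, 1685, 1071 and 2259 had an unadjusted p under 0.05. DESeq2 called 388, 48 and 779 genes in all. The count of factors called by edgeR at 120 days was also 0 without the fetus that stood apart (1 at an unadjusted p under 0.05). ELF5, an ETS factor of glandular epithelia, fell by 2.81 ± 0.59 from the 80-day controls (WT with HZ) to the WT fetuses at 120 days (adjusted p = 0.0276, 1 of 19 beside 0.719% of all genes). Its mean went from 249 ± 88.6 to 31.2 ± 5.72 CPM. That call was lost without 5 of the 7 animals in turn, with log2 values of -2.98 to -2.62 over all alternatives. BHLHE40 rose by 1.11 from 120 days to term in CFTR-/- animals (adjusted p = 0.0480, 1 of 19 beside 11.4% of all genes). That call was lost without 7 of 9 animals in turn, with 0.69 without CFTR-/- replicate 1 at term, and in 5 of 10 other settings. Without the fetus that stood apart it did not pass (adjusted p = 0.0620) and SOX9, at -0.81, did (adjusted p = 0.0291). The pioneer factor FOXA1 was 4.11 ± 0.93 higher in cloned than in naturally bred CFTR-/- fetuses (adjusted p = 0.0454, 1 of 19 beside 0.878% of all genes), a call lost without 5 of 6 animals in turn. Without the fetus that stood apart it was 3.89 (adjusted p = 0.0511).

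Of 18 tested genes of protein folding, degradation and recycling known to handle the CFTR protein, 9 were above their acinar-gated level in every animal (50%, beside 66.6% of the genes passing the same filter). At 80 days 1 of the 18 passed between genotypes, beside 1.19% of all genes. RAB11A, a GTPase of recycling endosomes, rose by 0.69 ± 0.16 in CFTR-/- against control fetuses at 80 days (adjusted p = 0.0405), with 94.4 to 110 against 61.4 to 77.6 CPM. The call was lost without any 1 of the 7 fetuses (adjusted p up to 0.170) and in 4 of 11 other settings, among them without both HZ fetuses (0.60, adjusted p = 0.384). It was also higher at term than at 120 days in CFTR-/- animals, by 0.66 (adjusted p = 0.00597, 1 of 18 beside 11.4% of all genes), and by 0.63 without the fetus that stood apart (adjusted p = 0.00653), a call lost in 1 of 10 other settings (adjusted p = 0.0976). Without that fetus 3 further calls appeared: NEDD4L, a ubiquitin ligase, at -0.95 from 80 to 120 days in CFTR-/- fetuses (adjusted p = 0.00498), the chaperone DNAJA1 at -1.03 from 120 days to term (adjusted p = 0.0430) and the chaperone HSPA5 at 1.79 in cloned against naturally bred CFTR-/- fetuses (adjusted p = 0.0461). In these 3 comparisons 7.82%, 13.8% and 0.902% of all genes passed. The mucins of the epithelial surface MUC1 and MUC20 were the 2 of 4 mucins tested. MUC1 rose by 1.70 ± 0.35 in CFTR-/- lambs at term (adjusted p = 0.00890, 1 of 2 beside 3.8% of all genes), from 28.3 ± 13.7 CPM (12.1 to 40.5, n = 4) to 84.3 ± 22.7 CPM (69.0 to 110, n = 3). It passed in 15 of 17 alternatives. The call was lost without CFTR-/- replicate 2 (adjusted p = 0.0544) and in 1 of 10 other settings (adjusted p = 0.0927). Both mucins rose from 120 days to term in CFTR-/- animals, by 1.88 and 2.06 (adjusted p = 0.000383 and 0.000435, 2 of 2 beside 11.4% of all genes), and by 1.82 and 2.20 without that fetus (13.8% of all genes). Breeding and sex shifted with age in these animals. Acinar markers took 0.0256% to 2.33% of the UMIs of an animal's duct-gated cells, with a mean of 0.942% in CFTR-/- and 1.14% in WT lambs, and their part in these values was not tested. Outside the duct gate, FXYD3 fell by 3.099 ± 0.53 in acinar-gated cells of CFTR-/- fetuses at 80 days (3 against 3 animals, adjusted p = 0.0234, 1 of 22 partners beside 0.0569% of all genes), lost without 5 of these 6 in turn. Over all kept cells at term SCTR rose by 1.97 in CFTR-/- lambs (adjusted p = 0.0325), while SYVN1, a ubiquitin ligase of the endoplasmic reticulum, and HSPA5 fell by 1.34 and 2.23 (adjusted p = 0.0430 and 0.0492). These 3 calls, beside 0.946% of all genes, were lost without 4, 5 and 5 of 7 lambs in turn, and HSPA5 was at -1.62 without WT replicate 3. In duct-gated cells at term none of the 3 passed, with SCTR at 1.52 ± 0.47 (adjusted p = 0.0722). The mix of cells moved with these calls. Acinar-gated cells made up 32.2% ± 16.9 of kept cells in CFTR-/- (18.6% to 51.1%, n = 3) and 58.1% ± 12.4 in WT lambs (44.0% to 73.5%, n = 4), and duct-gated cells held 13.3% ± 12.8 and 4.36% ± 4.61 of the UMIs. The part of the cell mix in these 3 calls was not tested.

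The genes listed near CFTR on its chromosome were above their acinar-gated level in every animal in 4 of 12 cases, 33.3%, beside 36.1% of all genes in the files. These 4 were CTTNBP2, CAPZA2, MET and TES. Among the 9 that passed the filter on low counts they are 44.4%, beside 66.6% of all genes passing it. In the order of a RefSeq annotation of the assembly ARS-UI_Ramb_v3.0, CTTNBP2 lies next to CFTR on one side and ASZ1, WNT2, ST7, CAPZA2 and MET on the other. CTTNBP2 had 18.8 ± 10.2 CPM in duct-gated cells (n = 23) against a mean of 0.176 CPM in acinar-gated cells, higher in 21 of 21 animals. ASZ1, a germ cell gene, had 4.19 ± 4.83 CPM and was higher in 17 of 21. Its duct-gated means in CFTR-/- against control animals were 0.667 against 3.52 CPM at 80 days and 1.94 against 10.2 CPM at 120 days, with overlap. At term they were 1.76 against 8.15 CPM, without overlap. ASZ1 passed at none of the 3 ages. Of the 12 genes listed, LSM8, ANKRD7 and KCND2 lie 170 to 173 protein-coding genes from CFTR in this annotation and are no neighbours, and the others lie within 9. The 33.3% above counts LSM8, ANKRD7 and KCND2 too, though none of them was among the 4. The 9 tested include LSM8, and in none of the 12 comparisons did edgeR call one. For CFTR-/- against WT, 2, 1 and 1 had an unadjusted p under 0.05 at 80 days, 120 days and term. Beside them stood 1685, 1071 and 2259 of all 12804 genes. DESeq2 called 0 there and 3 in the comparisons of breeding. Of these, 2 were in cloned against naturally bred CFTR-/- fetuses, beside 886 of all genes. The other was in naturally bred fetuses against WT, beside 188. TES passed in cloned against naturally bred CFTR-/- fetuses when the fetus that stood apart was left out, at 2.07 (adjusted p = 0.0461), where 0.902% of all genes passed. Across the 23 animals the duct-gated levels of CTTNBP2 and CFTR had r = 0.65, and 0.43 without the animal that stood apart.

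The genes whose pattern was most like that of CFTR were sought among 8508 genes with at least 10 CPM in duct-gated cells that marked no gate. Over 57 means of a lineage in a group, on a log2(CPM + 10) scale, ATP6V1B1, a subunit of a vacuolar-type proton pump, came first (r = 0.99). DNAH11, an axonemal dynein, and CFAP221, a protein of cilia, followed (0.98 each). The others of the first 10 were LOC105615310, ERICH5, AGR3, VEPH1, RBBP8NL, CPB2 and GPR37 (0.97 to 0.98). The choice itself makes them high in duct-gated and low in other cells: ATP6V1B1 had 111 ± 39.8 CPM in duct-gated and 0.429 CPM in acinar-gated cells, DNAH11 179 ± 138 against 0.634 CPM and CPB2 348 ± 143 against 1.07 CPM. The points share libraries and the contrast of duct with all other lineages.

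Within the duct-gated cells, over the 23 animals, other genes came first: LOC106991144 (r = 0.89), SLC45A3 (0.88), SMTNL2 (0.88), CDH2, which encodes N-cadherin (0.88), and DOCK1 (0.87). Without the animal that stood apart these were 0.89, 0.80, 0.82, 0.82 and 0.80. That animal had the highest level of SLC45A3, SMTNL2, CDH2 and DOCK1 too, with 197 CPM of CDH2 where the next had 94.6. Of the gene lists above, NEDD4L (r = 0.81, 0.70 without that animal), and SLC12A2, the sodium potassium chloride cotransporter that brings chloride into the cell (0.77 and 0.69), were close to CFTR across animals, and SCTR was less so (0.47 and 0.28). Others ran the opposite way, FXYD3 at -0.70 (-0.48 without that animal), ATP1B1 at -0.54 (-0.53) and ANO1 at -0.46 (-0.45), while SLC4A4 was at -0.10. Of the 20 secretion partners tested, 12 had an r above 0 and 8 below, with a median of 0.13 beside 0.21 over all genes tested.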

How the data were processed

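Single-cell libraries (10x Genomics 3′ chemistry) were made from dissociated pancreas of 23 sheep. The authors aligned reads to the sheep genome Oar_v4.0 and counted UMIs per gene and barcode with Cell Ranger 3.1.0, per the submitters' processing notes, and the deposited matrices hold these raw counts. Which library was dissociated with which enzyme is not given in the sources used here. Barcodes with over 200 and under 6000 genes and under 25% mitochondrial UMIs were kept (79510 of 109501), which sets the number of deep cells counted.

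Cells were gated on 13 marker lists (minimum score 0.5, margin 0.5 over the next list) in Python 3.11.15 with numpy 2.4.6, scipy 1.17.1 and pandas 2.3.3. The 2 libraries of an animal were summed. Groups come from the labels, and breeding from the study's sample table. Levels between groups were tested on UMI counts summed per animal with edgeR 4.0.16 (quasi-likelihood test, limma 3.58.1, R 4.3.3; 17 residual degrees of freedom in the duct gate), with Benjamini-Hochberg adjustment over all genes passing filterByExpr and a threshold of 0.05. Every adjusted p of a fold change is from that test unless DESeq2 (1.42.0) is named. Duct-gated sums held 652813 to 18988257 UMIs an animal. Lineages and shares of cells were compared by two-sided permutation over animals. UMIs of 1 animal are not independent replicates, and the p-values measure the spread between animals. On simulated counts with the duct-gated design, simulated log2 changes of 2 were found in 84% to 96% of genes and those of 1 in 27% to 42%, over the 7 comparisons simulated.

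CFTR and the gene lists were chosen with earlier results of these data known. Named genes were list members past the threshold, the 5 partners and 5 factors highest in duct-gated cells, and the 10 and 5 genes most like CFTR over lineage means and over animals. ATP1B1 and the other partners without overlap at 80 days, BEST4, the neighbouring genes, NEDD4L and SLC12A2, and genes that passed only without the fetus that stood apart, were named after their values were seen. Some listed genes enter the counts but are not reported here. Positions of neighbouring genes come from another assembly and were used for their order only.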

Additional observations from a re-analysis of the deposited data

Results flagged for a closer look

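In 14 groups of 4 to 6 animals the highest or lowest animal was set against the others by Dixon's criterion, which chance meets in about 1 in 20 groups, and 6 values stood apart. CFTR-/- replicate 3 at 120 days was far above the other 5 fetuses of its group in duct-gated cells (869 CPM, the next 273), over all kept cells (134 CPM, the next 58.1) and in the share of duct-gated cells with a CFTR UMI at 3000 UMIs (85.05%, the next 48.8%). It had the fewest kept cells and the highest mitochondrial share, and the part of these in its level was not tested. WT replicate 1 at 80 days (38.9 CPM) and WT replicate 1 at term (31.9 CPM) were high over all kept cells. WT replicate 4 at term had the lowest share of duct-gated cells with a CFTR UMI at 3000 UMIs of its group, 35.4%. Outside the kept cells, 19713 CFTR UMIs lay in duct-gated barcodes with 6000 genes or more.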

How the results depend on the processing

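Of the alternatives of the CFTR comparisons, 387 kept their direction and their side of the threshold, 0 lost a call, 3 gained one and 21 changed sign, none of the last being a call. The gains were CFTR-/- 120 against 80 days with cells under 10% mitochondrial UMIs (-0.85) or without replicate 3 at 120 days, and all kept cells at 80 days with DESeq2 (1.51). The first setting drops that same fetus, which has 7 such cells.

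Donor numbers do not pair the animals (same-numbered animals' deviations had r = -0.12 to 0.28). With them as a replicate block the value changed sign for WT term against 120 days (0.16), for the change of the genotype difference from 80 to 120 days (0.068) and for acinar-gated cells at 120 days (-0.058), and the genes called in duct-gated cells at 80 days were 88 in place of 152. Under 10% mitochondrial UMIs, CFTR-/- term against 120 days was 0.14 and the change of the genotype difference from 120 days to term 0.18. On log2 CPM with exact permutation, WT term against 120 days was 0.0087. Without the upper limit on genes, an alternative chosen after seeing the data, naturally bred against WT was 0.027 and acinar-gated cells at 80 days -0.030. Unthinned, the detection difference at 120 days was -0.035 points.

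Leaving out 1 animal at a time, and again changing sign, WT at 120 days against WT with HZ at 80 days ran from -0.31 to 0.12, the latter without WT replicate 1 at 80 days. WT term against 120 days ran from -0.13 to 0.14 (0.07 without WT replicate 4 at term), and CFTR-/- term against 120 days from -0.41 to 0.16. The change of the genotype difference to term ran from -0.39 to 0.17. Naturally bred against WT ran from -0.28 to 0.20 (0.14 without WT replicate 2). Acinar-gated cells ran from -0.00018 to 0.34 at 80 days, -0.054 to 0.27 at 120 days (-0.0098 without WT replicate 1) and -0.0013 to 0.38 at term. Detection at term ran from -1.71 to 7.57 points. CFTR-/- 120 against 80 days stayed below 0, from -0.87 (without replicate 3 at 120 days) to -0.39. The causes were not tested.

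The genes called in duct-gated cells moved by over 1.5 times in several settings. At 80 days there were 152, 1294 with that age fitted alone, 351 under 10% mitochondrial UMIs, 4 without HZ, 388 with DESeq2 and 29 to 72 without 1 of 6 fetuses. At 120 days there were 3, and 0 to 48 elsewhere. At term there were 487, 99 fitted alone, 831 without the upper limit, 779 with DESeq2 and 148 to 893 without 1 of 5 lambs. Of 20 calls of listed genes, MUC1 and MUC20 from 120 days to term in CFTR-/- animals passed in all 19 alternatives, and none changed sign. The MUC6 comparison was not run, for too few MUC6 UMIs, and the order of the lineages was not recomputed. Errors are SDs and SEs over animals, and 27% to 42% of simulated 2-fold changes were found.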
